A study of Homo sapiens with 32 samples.

Results

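The tRNAs for asparagine, aspartate, histidine and tyrosine are the nuclear tRNAs whose anticodons begin with G and in which this G, at position 34, can be exchanged for queuosine. Their genes were taken by RefSeq symbol (TRN-, TRD-, TRH- and TRY-), and a gene was kept when at least 30 reads covered some position of it in any of 32 base-resolution libraries from Hep3B cells, a human hepatocellular carcinoma line. Of 56 such genes placed on the genome, 50 had reads (17 Asn, 13 Asp, 9 His and 11 Tyr), out of 353 nuclear tRNA genes with reads. Genes with the same mature sequence were merged, which gave 27 sequences, 21 of them with reads (10 Asn, 3 Asp, 1 His and 7 Tyr). TRN-GTT27-1, TRN-GTT8-1, TRN-GTT9-1, TRN-GTT9-2, TRY-ATA1-1 and TRY-GTA7-1 had no position with 30 reads. All 50 genes with reads carry G34 in their anticodon.

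The libraries were made to map N4-acetylcytidine, which NaCNBH3 reduces to a base that reverse transcription partly reads as T. Each of 8 genotypes was represented by 2 replicates, and each replicate was split into a mock and a NaCNBH3 fraction. All cells received 100 nM dTAGV1, a degrader of the FKBP12-F36V tag, for 24 h. Wildtype cells were parental Hep3B cells, and all others carried the tag at the C terminus of both alleles of endogenous NAT10, the RNA cytidine acetyltransferase. FKBP cells had the tag alone and NAT10(-) cells also a control plasmid, which coded for YFP. NAT10-WT, K290A, E389L, H537A and G641E cells had a lentiviral NAT10 copy under the EF1A promoter, unmutated in NAT10-WT, with a helicase-domain substitution in K290A and E389L and with an acetyltransferase-domain substitution in H537A and G641E.

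Transfer RNAs carry many modified bases, and those that alter the base-pairing face, such as N1-methyladenosine at position 58, N1-methylguanosine at positions 9 and 37 and dimethylguanosine at position 26, cause reverse transcriptase to insert a wrong base or to stop. TRMT6 and TRMT61A make the first, TRMT10A and TRMT5 the methylguanosines at 9 and 37, and TRMT1 the dimethylguanosine. TRMT10B methylates the adenosine at position 9 of tRNA-Asp. Queuosine, put in by QTRT1 and QTRT2, pairs as guanosine does and is not known as a strong source of misreading. In the values that follow, the mismatch level is the share of reads at a position that show a base other than the genomic one, read on the strand of the tRNA, so it is a reading of the sequence and not the share of molecules modified.

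The sequences below are those on which the levels turn: the leading sequence (highest mean depth) of Asn, Asp and His, a Tyr gene with its intron, and the Asn and Asp sequences that differ from the leading one at 1 or 2 bases. They were read from GRCh38. Capitals mark, from the 5′ end, positions 9, 26, 34, 37, 58 and 64, and position 24 in TRY-GTA2-1.
TRN-GTT2 (TRN-GTT2-1, chr1:148529257-148529330, plus strand): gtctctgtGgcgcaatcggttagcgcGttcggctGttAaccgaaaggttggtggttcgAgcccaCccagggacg
TRN-GTT3-1 (chr1:144419267-144419340, plus strand): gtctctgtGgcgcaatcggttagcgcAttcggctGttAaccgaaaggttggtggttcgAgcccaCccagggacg
TRN-GTT6-1 (chr1:143735920-143735993, minus strand): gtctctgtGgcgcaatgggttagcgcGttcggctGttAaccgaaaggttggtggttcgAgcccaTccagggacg
TRN-GTT24-1 (chr1:146370101-146370174, plus strand): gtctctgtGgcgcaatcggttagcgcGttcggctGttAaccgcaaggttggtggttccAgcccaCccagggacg
TRD-GTC2 (TRD-GTC2-1, chr1:161440825-161440896, minus strand): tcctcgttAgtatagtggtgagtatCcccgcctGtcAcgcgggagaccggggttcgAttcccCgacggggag
TRD-GTC1-1 (chr12:98503503-98503574, plus strand): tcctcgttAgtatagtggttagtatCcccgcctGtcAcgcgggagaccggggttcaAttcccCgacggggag
TRD-GTC3-1 (chr6:27583457-27583528, minus strand): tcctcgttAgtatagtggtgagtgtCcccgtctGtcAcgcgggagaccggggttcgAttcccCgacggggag
TRH-GTG1 (TRH-GTG1-1, chr1:146038044-146038115, plus strand): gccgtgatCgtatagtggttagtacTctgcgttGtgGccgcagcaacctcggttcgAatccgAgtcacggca
TRY-GTA2-1 (chr2:27050782-27050870, plus strand): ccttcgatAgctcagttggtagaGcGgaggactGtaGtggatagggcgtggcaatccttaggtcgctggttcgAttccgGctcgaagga
Against TRN-GTT2, TRN-GTT3-1 differs by G26A, TRN-GTT6-1 by C17G and C64T, and TRN-GTT24-1 by A42C and G57C, with the base of TRN-GTT2 first. Against TRD-GTC2, TRD-GTC1-1 differs by G20aT and G57A, and TRD-GTC3-1 by A24G and C31T. TRY-GTA2-1 differs from TRY-GTA5, the leading Tyr sequence, by C16T and has an intron of 16 bases after position 37. TRN-GTT2 has 8 gene copies, TRD-GTC2 11, TRH-GTG1 9 and TRY-GTA5 5.

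Each library listed between 400119 and 3797803 positions with at least 30 reads, with a median depth from 49 to 169 reads, and depth levelled off near 20029 to 20049 reads. The deepest base of any of the 50 genes had 18528 reads, below that level. The K290A NaCNBH3 replicate 2 library was thin at these tRNAs, with 3468 reads summed over the A58 positions of the sequences described, against 11579 to 174821 in the other libraries. Of 8 hepatocyte markers, ALB, APOA1, APOA2, SERPINA1 and TF were covered in all 32 libraries, AFP and TTR in 25 and FGB in 12. Of the mRNAs of 19 tRNA-modifying enzymes, 14 had no position with 30 reads in any library, QTRT1, QTRT2, TRMT6, TRMT61A, TRMT10A, TRMT10B and TRMT5 among them, so their levels cannot be given.

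Position 58 separated the leading sequences of the 4 families most widely. In the 16 mock libraries the mismatch level at A58 was 82.1% at the lowest, 89.5% at the median and 91.8% at the highest in His (TRH-GTG1). In Asn (TRN-GTT2) it was 45.9%, 57.9% and 82.2%. In Tyr (TRY-GTA5) it was 23.6%, 32.98% and 53.1%. In Asp (TRD-GTC2) it was 4.96%, 6.04% and 7.91%. His was above Asn, Asn above Tyr and Tyr above Asp in each of the 16 libraries. The mean difference was -26.1 percentage points for Asn minus His, 27.01 for Asn minus Tyr and -29.7 for Asp minus Tyr. All 6 pairs of families gave p = 3.05e-05 in the two-sided exact sign-flip permutation test over 16 libraries, the smallest this test can give (adjusted p = 6.71e-05 over the 22 pairs compared). With all sequences of a family summed, the order held in each of the 16 libraries. The means were then 88.85% in His, 71.7% in Asn, 52.1% in Tyr and 8.51% in Asp. Single sequences departed from the order, as the values of the next paragraph show. The leading sequences also differed in reads over the 5 bases downstream of the gene, as a share of those at A58. The mock medians of this flank share were 8.87% in His, 52.1% in Asn, 49.9% in Asp and 98.9% in Tyr. Its part in the order was not tested. The wrong bases were mainly T and G. In Asn 35.1% of all mock reads showed T and 26.6% G, and in His 42.4% showed T and 45.1% G. Among the other nuclear tRNAs, 137 sequences with A58 had a median of 82.4%, and only 3 of the 137 lay below TRD-GTC2.

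**Figure D1:**
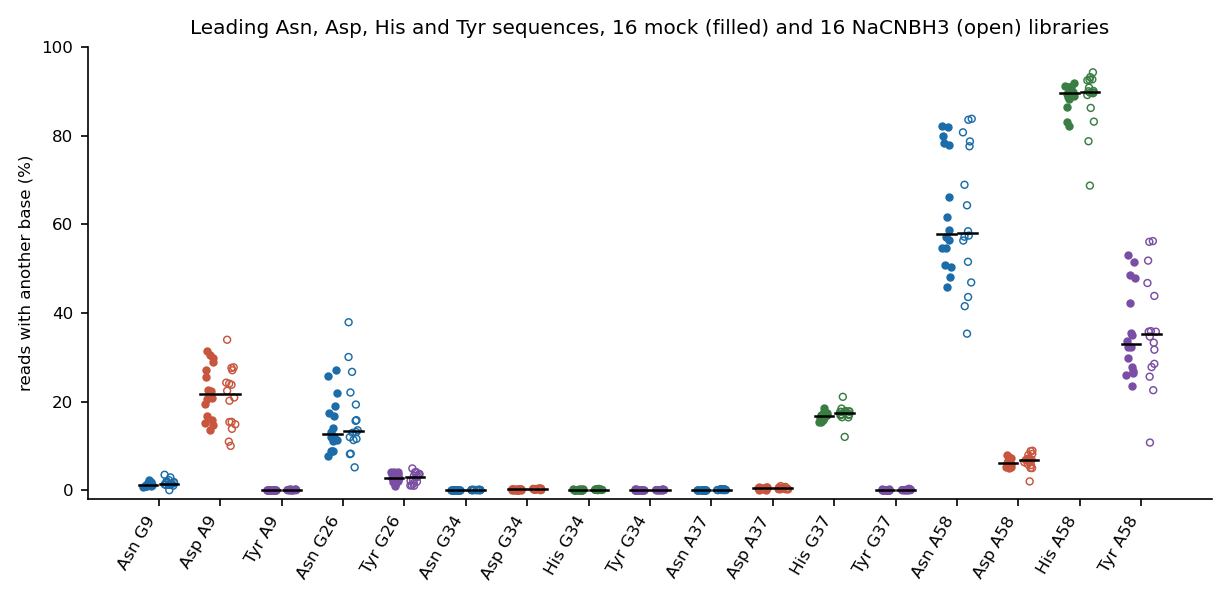
Mismatch level (percent of reads with a base other than the genomic one) at positions 9, 26, 34, 37 and 58 of the leading Asn, Asp, His and Tyr sequences, 1 point per library, mock filled and NaCNBH3 open, with the median as a line. The mock median at A58 runs from 6.04% in Asp to 89.5% in His, A9 is misread in Asp and not in Tyr, G37 in His and not in Tyr, and position 34 lies at or below 0.401% in all 4 leading sequences. In Tyr, positions 9 to 37 lie before an intron that was covered about as deeply as they were. The median share of reads in the downstream flank ran from 8.87% in His to 98.9% in Tyr. Its part in the A58 levels was not tested.

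Within Asn and Asp, sequences that differ by 1 or 2 bases had quite different A58 levels. Identical copies differed as well, and the 8 copies of TRN-GTT2 had medians from 24.97% to 89.8%. A TRN-GTT2 read with G26 read as A cannot be told apart from a TRN-GTT3-1 read. Most reads at position 17 of TRN-GTT6-1 showed the base of TRN-GTT2. Whether the base differences account for the levels was not tested. TRN-GTT3-1 had a mock median of 90.5% (84.7% to 94.2%) and TRN-GTT6-1 of 90.1% (81.0% to 92.4%), both above TRN-GTT2 in median. The range of TRN-GTT3-1 did not overlap that of TRN-GTT2. TRN-GTT24-1, in which the base before A58 is C in place of G, had 0.551% (0% to 2.00%) at a median of 397.5 reads, and its range did not overlap that of any other Asn sequence named here. TRD-GTC1-1, with A at position 57, had 6.66% (5.12% to 8.97%), a range that overlaps that of TRD-GTC2. TRY-GTA2-1 had 63.3% (40.2% to 75.04%). Further sequences were covered less evenly and are named after their values were seen. TRD-GTC3-1 had 62.4% (53.4% to 71.95%) at a median of 289.5 reads, well above TRD-GTC2. TRN-GTT4-1 had 88.4%, TRN-GTT1-1 80.5%, and TRY-GTA8-1 and TRY-GTA3-1, which had reads in their 3′ part only, 93.9% and 95.1%. In TRY-GTA3-1, 39.9% of mock reads showed T at A59 and 69.8% showed A at G69, the bases of TRY-GTA5. At T59 of TRN-GTT1-1, its only difference from TRN-GTT2, 18.5% showed G, the base of TRN-GTT2. How far reads of other sequences enter these levels was not tested.

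At position 9, adenosine was misread in Asp and not in the Tyr reads. The Tyr genes have an intron after position 37, and the bases before it were covered about as deeply as the intron. In TRY-GTA5-1 the medians were 335.5 reads before the intron, 377.5 over it and 795.5 after it. How far Tyr values at positions 9 to 37 describe intron-containing transcripts was not tested. TRD-GTC2 A9 had 13.7% at the lowest, 21.6% at the median and 31.5% at the highest of the 16 mock libraries, and TRY-GTA5 A9 had 0%, 0% and 0.147%. The groups did not overlap, with a mean difference of 22.2 percentage points (exact sign-flip permutation test, two-sided, p = 3.05e-05, adjusted p = 6.71e-05). In Asp 96.6% of the mismatched reads showed T. TRD-GTC1-1 A9, which fell under 30 reads in at least 1 NaCNBH3 library, was at 36.2% (24.7% to 46.02%) in the mock libraries. TRD-GTC3-1 A9 was at 0% at the median and 0.376% at the highest, over a median of 258.5 reads. The mock medians of all 44 other tRNA sequences with A at position 9 lay at or below 0.0313%, so TRD-GTC2 and TRD-GTC1-1 stood above each of them. Guanosine at position 9, present in Asn, was at 1.11% (0.666% to 2.23%) in TRN-GTT2 and at 13.5% (7.56% to 20.1%) in TRN-GTT3-1, which has the same bases up to position 25 and was likewise not covered by 30 reads in every NaCNBH3 library, while TRN-GTT24-1 was at 0% (0% to 0.262%). A TRN-GTT2 read with G26 read as A cannot be told apart from a TRN-GTT3-1 read, which limits the comparison of these sequences. TRH-GTG1 has C at position 9, with 0.0749% (0% to 0.148%).

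At position 26, the site of dimethylguanosine, Asn and Tyr have G, while Asp has C and His has T. TRN-GTT2 G26 had 7.76%, 12.6% and 27.1% at the lowest, median and highest mock library, and TRY-GTA5 G26 had 0.846%, 2.72% and 4.16%. Asn was higher in 16 of 16 libraries, by 11.9 percentage points on average (exact sign-flip permutation test, two-sided, p = 3.05e-05, adjusted p = 6.71e-05). The median over 68 other tRNA sequences with G26 was 62.0%, and 10 of them lay below TRN-GTT2 and 5 below TRY-GTA5. TRN-GTT24-1 was at 0% (0% to 0.346%). TRD-GTC2 C26 had at most 0.161% and TRH-GTG1 T26 at most 0.0648% in any mock library.

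The Asn value at position 26 is bound up with the reference. In TRN-GTT2 59.1% of the mismatched mock reads at G26 showed A, and A is the genomic base of TRN-GTT3-1 at the only position where both sequences differ. Thus a TRN-GTT2 read in which G26 was read as A and a TRN-GTT3-1 read cannot be told apart. TRN-GTT3-1 carried a median of 3511.5 reads at this position in the mock libraries, against 2811.5 over all 8 copies of TRN-GTT2, and 98.3% of its reads showed A. With both sequences summed, 57.4% of reads were not G at the median, from 36.2% to 78.5%. Sequences that differ from TRN-GTT2 elsewhere, and are named after their values were seen, had G26 levels of 68.3% (25.5% to 82.8%, TRN-GTT6-1), 67.9% (49.6% to 85.1%, TRN-GTT4-1) and 47.01% (29.8% to 61.96%, TRN-GTT1-1). TRN-GTT6-1 showed a like exchange at position 17, where C, the base of TRN-GTT2, made up 77.1% of its mock reads in place of its own G. Only 6 of 16 mock libraries had 30 reads at this position. At T59 of TRN-GTT1-1, G, the base of TRN-GTT2, made up 18.5% of mock reads.

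Position 37, next to the anticodon, is G in His and Tyr and A in Asn and Asp. TRH-GTG1 G37 had 15.3%, 16.8% and 18.6% at the lowest, median and highest mock library, and 76.4% of the mismatched reads showed T. TRY-GTA5 G37 was at 0% at the median and 0.193% at the highest, and TRY-GTA2-1 G37 at 0% in all 16. His was higher in 16 of 16 libraries, by 16.7 percentage points (exact sign-flip permutation test, two-sided, p = 3.05e-05, adjusted p = 6.71e-05). The mock medians of the 36 other tRNA sequences with G37 ranged from 3.29% to 60.4% with a median of 17.9%, so that 16 of them lay below His and both Tyr sequences lay below all 36. In TRY-GTA2-1 the median depth was 392.5 reads at position 37, 396 at the first base of the intron and 926.5 at position 38. How far the Tyr values at G37 describe intron-containing transcripts rather than spliced tRNA was not tested. A37 of Asn, where threonylcarbamoyl adenosine is made by OSGEP and YRDC, was at 0.0251% (0% to 0.131%) in TRN-GTT2, and A37 of TRD-GTC2 was at 0.421% (0.0663% to 0.714%), higher in 16 of 16 libraries, with a mean difference of -0.373 percentage points for Asn minus Asp (p = 3.05e-05, adjusted p = 6.71e-05, same exact permutation test).

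At position 34, where queuosine can stand, the 9 sequences with at least 30 reads in all 32 libraries stayed at or below 0.460% in each of them. The mock medians of the leading sequences were 0.157% in Asp, 0.109% in His, 0.0298% in Asn and 0% in Tyr. The Tyr value again comes from bases before the intron, with the limit given at position 9. The mean difference was -0.134 percentage points for Asn minus Asp (adjusted p = 0.000183, exact sign-flip permutation test over 16 libraries), -0.0900 for Asn minus His (0.00056), 0.129 for Asp minus Tyr (0.00134) and 0.0850 for His minus Tyr (0.0451). Of these, Asn minus His lost its call without replicate 2, Asp minus Tyr without replicate 1 and His minus Tyr without either. Neither Asp against His nor Asn against Tyr passed the test. Asp minus His did pass in the NaCNBH3 libraries (adjusted p = 0.0165, same permutation test) and without replicate 2 (0.0397). Without replicate 1 its mean difference turned negative (-0.013 percentage points). The mock medians of the 15 other tRNA sequences with G34 reached 0.0238% at most. Position 20 can carry an amino-carboxypropyl group put on by DTWD1. It is T in the leading sequences and reached at most 0.532% in any library over 8 sequences. None of its 6 pairs of families passed the test.

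Besides these positions, the leading sequences held 1 other with a mean mismatch of at least 5%, C64 of TRN-GTT2, in the T arm. Its level in the mock libraries was 11.4%, 30.4% and 35.7% at the lowest, median and highest, and 99.9% of the mismatched reads showed T, which is the genomic base of TRN-GTT6-1. TRN-GTT3-1 C64 had a median of 26.8% (15.5% to 41.4%). TRN-GTT4-1 C64, named after its values were seen, had 9.61% (4.07% to 21.1%). TRY-GTA2-1 G24 was read as C in 14.6% of mock reads on average, a base that no Tyr sequence in the genome has there. TRD-GTC2 T33, beside the anticodon, was read as C in 2.93% of mock reads.

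Copies with an identical mature sequence were not covered alike. In the mock libraries the median number of reads at A58 ran from 141 to 3458 over the 8 copies of TRN-GTT2, from 128 to 2047.5 over the 11 of TRD-GTC2 and from 1832 to 2583 over the 9 of TRH-GTG1. The copies also differed in how many reads ran on into the flank of the gene. The reads over the 5 bases after the last base of the gene, as a share of those at A58, were 94.9% in TRN-GTT2-6 and 8.92% in TRN-GTT2-7. Their A58 levels were 24.97% and 89.8%, and their G26 levels 5.37% and 44.2%. Across the copies of Asn and His the A58 level was lower where more reads ran into the flank. For A58 Spearman's rho was -0.886 over 13 Asn copies, -0.996 over 9 His copies and -0.225 over 13 Asp copies. Of the latter all 11 copies of TRD-GTC2 lay between 3.47% and 15.03%, and over these 11 rho was -0.609. For A9 of Asp it was -0.951 over 12 copies, and for G26 of Asn -0.939 over 10 copies. These values describe copies that share libraries and largely the same bases, and were not tested. Flank bases with under 30 reads counted as 0, so the flank share of thinly covered copies can be too low. Such shares enter the rho values. How reads that fit several copies were placed is not given in the sources used here.

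**Figure D2:**
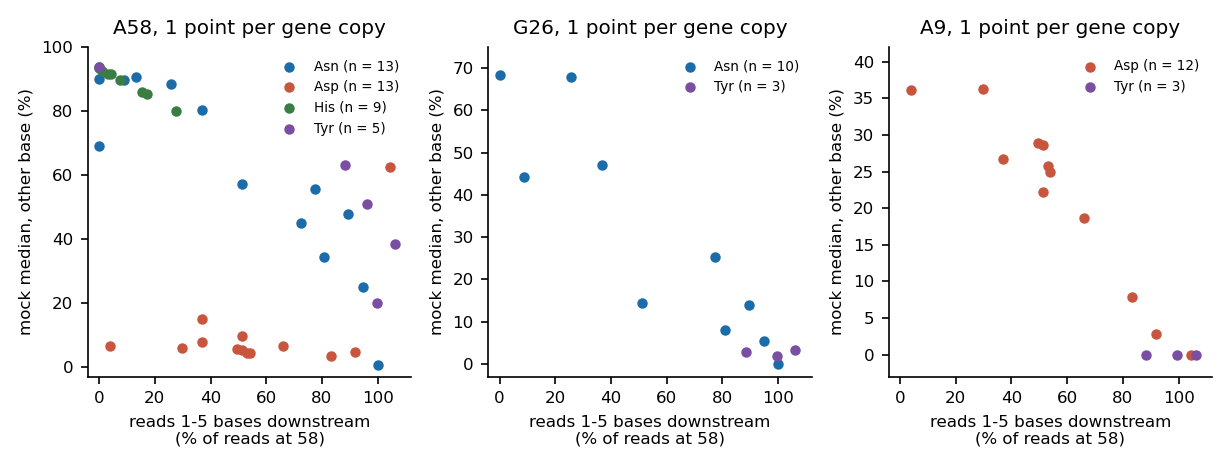
Median mismatch level in the 16 mock libraries (y axis, percent) against the reads 1 to 5 bases downstream of the gene as a percent of the reads at A58 (x axis), 1 point per gene copy with at least 30 reads at that position in all 16 mock libraries. Levels at A58 of Asn and His, G26 of Asn and A9 of Asp fall from the copies with few flank reads to those with many, whereas A58 of Asp stays near the bottom of the scale in all copies but TRD-GTC3-1.

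Reads over the downstream flank came to 100% of those at A58 in TRN-GTT24-1 and to 104% in TRD-GTC3-1, against 52.1% in TRN-GTT2, 49.9% in TRD-GTC2, 13.2% in TRN-GTT3-1, 3.90% in TRD-GTC1-1 and 0% in TRN-GTT6-1 (medians of 16 mock libraries). Flank bases with under 30 reads counted as 0, so the 0% of TRN-GTT6-1 does not mean that no read was there. In His the share was 8.87%. In Tyr it was 98.9% for TRY-GTA5 and 88.4% for TRY-GTA2-1, and A58 of TRY-GTA2-1 was misread in 63.3%. Among the mock libraries, K290A replicate 1 had both the highest A58 level of TRN-GTT2 (82.2%) and the lowest flank share (26.1%), and H537A replicate 2 the lowest A58 level (45.9%) and the highest flank share (67.7%). The part of flank-containing reads in the levels was not tested.

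Depth also changed along the genes. Over TRN-GTT2-7 a median of 245 reads covered the first 37 bases and 3458.2 the last 36. The step lay between position 26, with a median of 345 reads, and position 27, with 2518. In TRN-GTT2-6, with most of its reads running into the flank, the values were 1334.5 and 1724.8. In TRN-GTT2 as a whole the median was 2811.5 reads at G26 and 7489.5 at G34. The Tyr genes have introns, and in TRY-GTA2-1 a median of 364 reads covered the bases before the intron, 370.5 the intron and 1024 the bases after it. In TRH-GTG1 the median depth was 20408 reads at A58 and 1483 over the downstream flank. Of the 9 His copies, TRH-GTG1-5 kept 1791.5 reads at position 72, and the other copies had between 81 and 615 there.

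**Figure D3:**
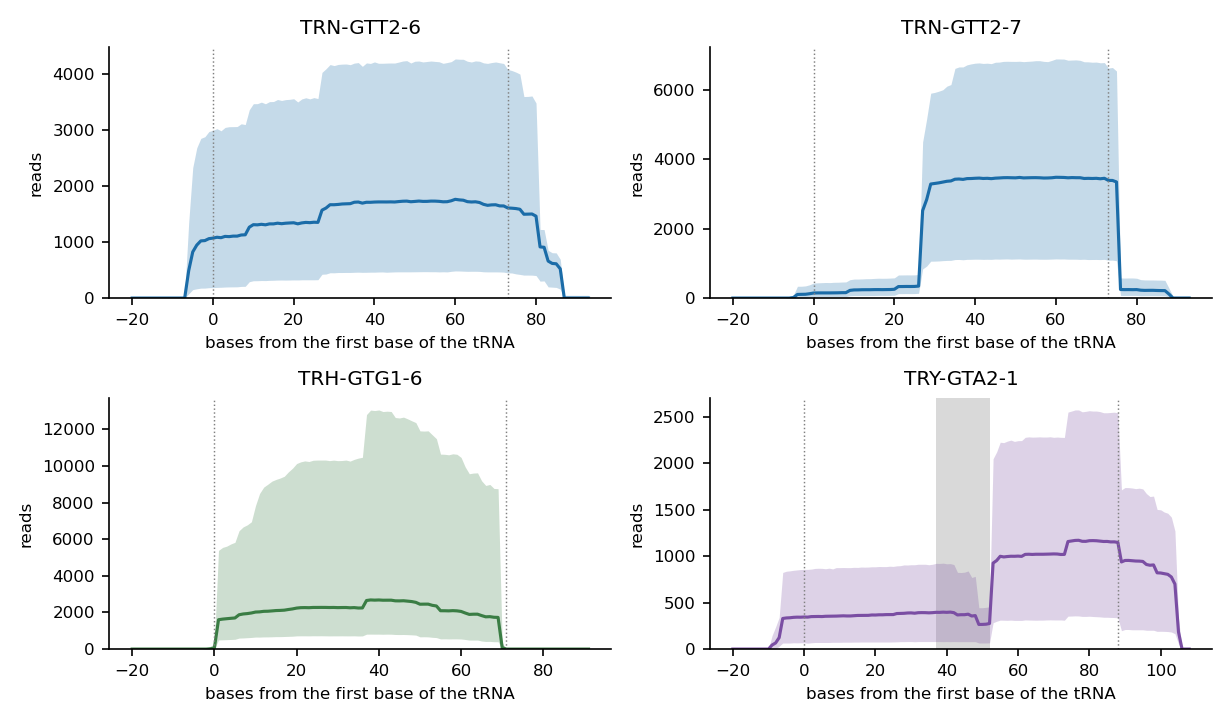
Reads per base (y axis) along 4 gene copies, counted in bases from the first base of the tRNA (x axis), as the median (line) and range (band) of the 16 mock libraries; dotted lines mark both ends of the gene and the grey band the intron of TRY-GTA2-1. TRN-GTT2-6 is covered into both flanks, with a median of 1069 reads at position 1 and 1718.5 at position 58, TRN-GTT2-7 gains most of its reads after position 26, TRH-GTG1-6 has no reads in its downstream flank, and TRY-GTA2-1 gains reads at the 3′ end of its intron.

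NaCNBH3 left the misread positions of these tRNAs close to their mock levels. The 23 positions with at least 30 reads in all 32 libraries and a mean mismatch of at least 1% were compared in 16 pairs of NaCNBH3 and mock fractions by limma over all 1554 positions that met these minimums. Over all of them 104 passed an adjusted p of 0.05 (6.69%), and of the 23 none did, nor did any at an unadjusted p under 0.05. The median log2 change of the mismatch odds over the 23 was 0.03, and over all 1554 it was 0.02. The change was -0.06 (SE 0.08) at TRN-GTT2 A58, 0.02 (SE 0.14) at TRH-GTG1 A58, 0.05 (SE 0.06) at TRH-GTG1 G37, -0.15 (SE 0.11) at TRD-GTC2 A9 and 0.12 (SE 0.14) at TRN-GTT2 G26. The NaCNBH3 medians were 57.9% at TRN-GTT2 A58, 89.9% at TRH-GTG1 A58, 17.4% at TRH-GTG1 G37 and 21.7% at TRD-GTC2 A9, each within the range of the mock libraries. Without the pair of the thin K290A library, a comparison chosen after seeing the data, TRD-GTC2 A58 (log2 change 0.19, limma adjusted p = 0.0414) and TRN-GTT2 G9 (0.45, limma adjusted p = 0.0252) were called higher, so these calls depended on that library. Over all positions 148 then passed. Without replicate 2 of all genotypes 7 of the 23 passed, all higher, beside 229 of all 1554, and without replicate 1 none did, beside 37 of all 1554.

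Genotypes were compared with NAT10-WT at the same 23 positions in the mock libraries, by limma over all 1554 positions. All 7 comparisons share the 2 NAT10-WT libraries. In Wildtype, 2 of the 23 positions passed, both lower, beside 59 of 1554 (3.8%) overall. None of the 23 passed in FKBP (1.03% of all positions), NAT10(-) (0.257%), G641E (0.322%), E389L (0.0644%) or K290A (1.48%). These fits had no block on the replicate number. With that block, 1 of the 23 passed in K290A, as given below. In H537A no position passed in the whole table (0%), where 41 had an unadjusted p under 0.05, none of them among the 23. The median log2 change of the 23 ran from -0.24 in Wildtype to 0.10 in K290A, where the median of all positions was -0.10 and 0.02. At TRN-GTT2 A58 the mock replicates were at 54.6% and 58.7% in NAT10-WT, 48.1% and 50.9% in Wildtype, 61.6% and 56.5% in NAT10(-), 82.0% and 78.4% in FKBP, 77.9% and 79.96% in G641E and 82.2% and 50.3% in K290A. FKBP and G641E lay above NAT10-WT in both replicates, and the difference did not pass (log2 1.64, SE 0.76, limma adjusted p = 0.611 in FKBP, and log2 1.52, SE 0.76, limma adjusted p = 0.856 in G641E). The share of reads in the downstream flank of TRN-GTT2 differed as well, at 31.9% and 31.4% in FKBP and 36.7% and 28.2% in G641E against 57.9% and 50.97% in NAT10-WT, and its part in the result was not tested. In such bulk levels, a change in the modified share of a molecule and a change in which molecules were read cannot be told apart.

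The first position that differed was G24 of TRY-GTA2-1, in the stem of the D arm. It lies before the intron, where the median depth was 364 reads, against 370.5 over the intron and 1024 after it. In the mock libraries the Wildtype replicates had 1 of 381 and 0 of 363 reads with another base, 0.262% and 0%, with upper limits of 1.47% and 1.05% (Wilson 95% intervals, which cover counting error only). NAT10-WT had 21.6% and 15.5%, NAT10(-) 35.3% and 29.9%, E389L 37.3% and 21.3%, H537A 20.6% and 16.3%, FKBP 9.84% and 6.10%, G641E 8.30% and 6.58%, and K290A 8.42% and 0.946%. In the NaCNBH3 libraries Wildtype had 0.268% and 0.221%, and the other genotypes 2.94% to 38.1%. All 4 Wildtype libraries lay below all 28 libraries of the genotypes derived from the tagged line, which ran from 0.946% to 38.1%. The log2 change of the odds in Wildtype against NAT10-WT was -6.60 (SE 0.75, limma adjusted p = 6.60e-06) with 0.5 added to each count, and -4.02 with 5 added, since the Wildtype libraries held so few such reads. With the replicate number as a block, TRY-GTA2-1 G24 was also lower in K290A (log2 -2.81, SE 0.50, limma adjusted p = 0.00374), which had an adjusted p of 0.0709 without the block in limma.

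The second was C64 of TRN-GTT3-1. It was read as another base in 15.5% and 16.99% of reads in Wildtype and in 31.5% and 41.4% in NAT10-WT, and in 20.7% to 38.5% in the mock libraries of the other genotypes, so that the Wildtype libraries were below all others. The log2 change was -1.55 (SE 0.35, limma adjusted p = 0.0128). The call was lost, with the direction kept, when Wildtype replicate 1 (log2 -1.48, limma adjusted p = 0.146), Wildtype replicate 2 (-1.63, 0.0816) or NAT10-WT replicate 2 (-1.24, 0.237) was left out. At TRN-GTT2 C64 the order differed. Wildtype, with 32.1% and 30.3%, lay next to NAT10-WT, with 33.8% and 33.4%, while FKBP had 15.2% and 16.5% and K290A 11.4% and 32.8% (log2 -1.43, SE 0.58, limma adjusted p = 0.478 in FKBP). This order depended on how copies were summed. In the copy of TRN-GTT2 with the most reads alone, C64 was called lower in Wildtype (log2 -1.66, SE 0.32, limma adjusted p = 0.00303).

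**Figure D4:**
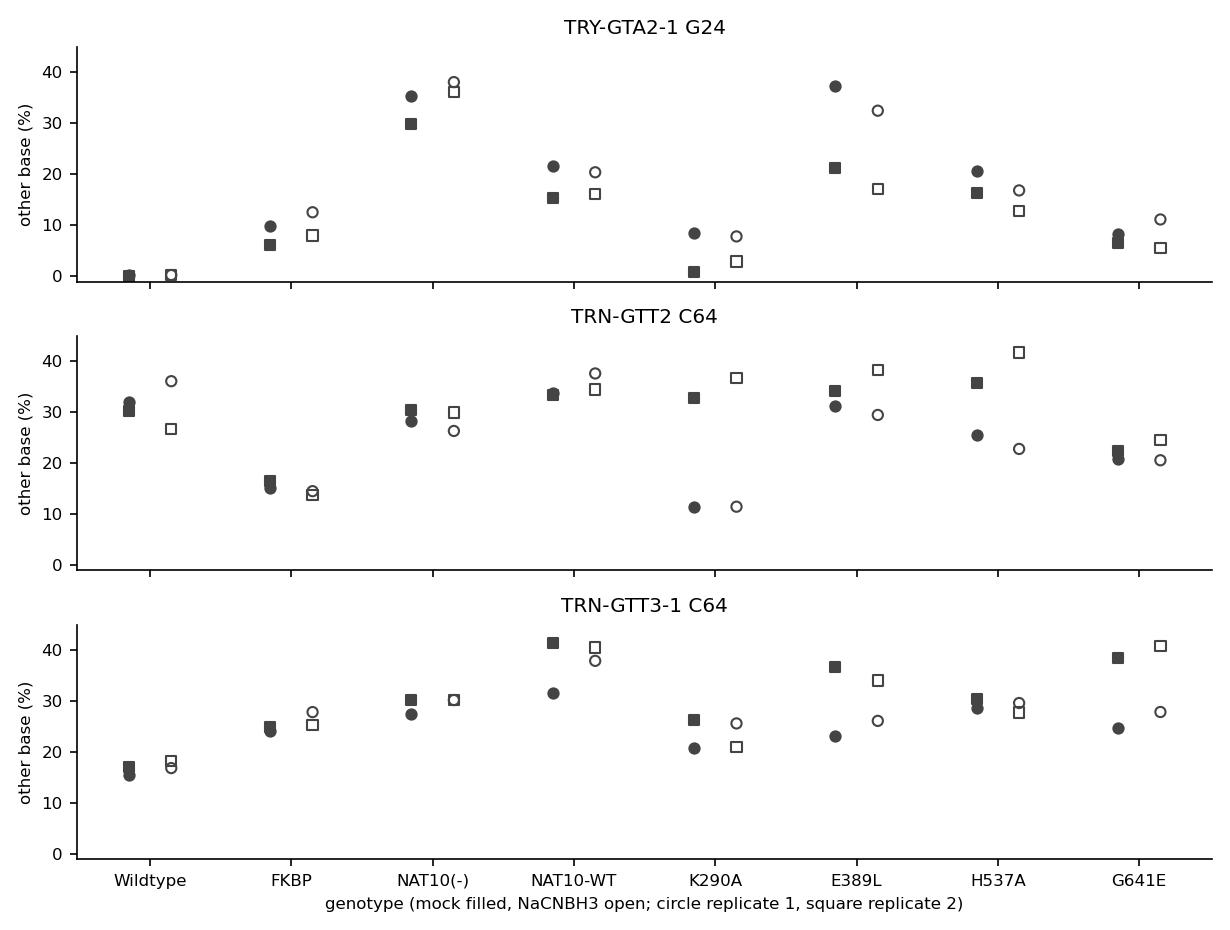
Percent of reads with a base other than the genomic one (y axis) at G24 of TRY-GTA2-1 and C64 of TRN-GTT2 and TRN-GTT3-1, by genotype (x axis), 1 point per library (mock filled, NaCNBH3 open, circle replicate 1, square replicate 2). G24 is near 0 in the 4 Wildtype libraries and reaches 38.1% elsewhere, and mock and NaCNBH3 fractions of a replicate lie close together at all 3 positions.

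Cytidine acetylation would show as T at a genomic C that rises with NaCNBH3. The 21 sequences hold 351 C positions, 157 of them with at least 30 reads in all 32 libraries. A position was tested when it had 5 T reads and a T share over 1%, by a two-sided Fisher's exact test of NaCNBH3 against mock in each replicate, and called when both replicates passed. Only 2 to 4 of the C positions qualified in a genotype, mainly C64 of the Asn sequences, and none was called raised or lowered in any of the 8 genotypes. In the whole table the share of tested positions called raised was 13.7% for NAT10-WT, 11.2% for Wildtype, 8.27% for FKBP and 6.79% for NAT10(-). For the mutants it was 9.16% (G641E), 7.49% (E389L), 7.22% (H537A) and 4.72% (K290A). At TRN-GTT2 C64, the share of reads with another base in NaCNBH3 and mock was 36.1% and 32.1% in Wildtype replicate 1 and 26.7% and 30.3% in replicate 2, so the replicates differed in direction. In NAT10-WT it was 37.6% against 33.8% and 34.5% against 33.4%.

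Leaving out C64 of Asn, the highest T share at any C of the 4 families in a single library was 2.22% (TRN-GTT3-1 C11), and 5 positions exceeded 1% in some library. The middle C of a CCG, the motif in which C12 of tRNA-Leu and tRNA-Ser is acetylated, occurs at 26 positions of these sequences (C40 in Asn, C29, C49 and C64 in Asp, C3, C39 and C62 in His and C62 in Tyr) and reached at most 1.96%, and at most 0.144% in His. For reference, C12 over 7 Leu sequences in the NaCNBH3 libraries reached 37.98% for Wildtype, 28.9% for NAT10-WT and 5.50% for NAT10(-), and over 7 Ser sequences 9.62%, 10.9% and 1.61%, against at most 2.10% in any mock library of either. The medians in the same genotypes were 3.657%, 3.735% and 0.9797% for Leu and 2.547%, 2.906% and 0.4259% for Ser. The lowest NAT10-WT values were 0.52% in Leu and 0.177% in Ser, so single C12 values lay below 1.96%. With positions over 0.1% T admitted, 6 of 23 C positions were called raised in Wildtype (26.1%) and 4 of 20 in both NAT10(-) and NAT10-WT. Of all positions tested, 37.6%, 38.2% and 42.6% were called in these genotypes. The difference of the NaCNBH3 effect between each genotype and NAT10-WT, a test added after seeing the data, passed at none of the 23 misread positions (smallest limma adjusted p = 0.972), and 1 of these tests over 7 genotypes had an unadjusted p under 0.05.

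In the NaCNBH3 libraries, the T share of the Asn C64 positions was lower than in NAT10-WT by the Fisher rule in several genotypes. C64 of TRN-GTT3-1 was called in 6 of 7 genotypes, all but G641E, C64 of TRN-GTT2 in 3 (FKBP, NAT10(-) and G641E), and C64 of TRN-GTT4-1 in 2 of 6 (Wildtype and E389L). This came to 2 of 3 tested positions in Wildtype (12.6% of all positions were called lower), FKBP (8.36%), NAT10(-) (8.53%) and E389L (10.4%), 1 of 3 in H537A (8.17%) and G641E (8.63%) and 1 of 2 in K290A (7.59%). These tests cover counting error in single libraries only. By limma, which uses the spread between libraries, only C64 of TRN-GTT2 and TRN-GTT3-1 had the reads to be tested, and TRN-GTT3-1 C64 in Wildtype was the only one of their comparisons to pass (log2 -1.60, limma adjusted p = 0.0409). TRN-GTT4-1 C64 was not tested by limma. In the mock libraries TRN-GTT3-1 C64 was likewise lower in Wildtype, by the values given above.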

How the data were processed

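The deposited files held raw counts of A, T, C and G reads for each position that 30 or more reads covered, 1 file per library. The authors made these counts by trimming, removing duplicates by molecular identifiers, aligning to GRCh38 and counting bases in a pileup by strand. STAR 2.7.9a was the aligner, SAMtools 1.6 gave the pileup, and UMI-tools 1.1.5 and cutadapt 4.2 handled identifiers and adapters, with versions from the submitters' notes. Before sequencing, ribosomal RNA had been partly depleted. How reads that fit several copies were placed is not given in the sources used here.

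Genes were placed by their RefSeq coordinates and the strand taken from the sequence, and bases were numbered in the usual tRNA scheme. Copies with the same mature sequence were summed, and over the rest of the table positions with the same 31-base window. Mismatch odds, log2((other base + 0.5)/(genomic base + 0.5)), were fitted with limma 3.58.1 (R 4.3.3), with 16 groups and no block for genotypes and with the pairs of fractions for NaCNBH3, adjusted by Benjamini-Hochberg over 1554 positions. C>T was tested with Fisher's exact test (scipy 1.17.1) per replicate. Families were compared by their leading sequences with exact sign-flip permutation tests. These treat the 16 mock libraries of 1 cell line as independent, so their p-values measure only how steady a difference was over these libraries. An adjusted p under 0.05 was called. Each test was tried on simulated data. The replicates of the transduced genotypes were separate transductions. For its cell experiments in general, the paper reports biological replicates on separate days, from cells within 1 passage range. It does not say so for the Wildtype and FKBP libraries by name. P-values there measure only the spread between these samples, which may be technical.

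The labels give the replicate number as a batch, which pairs the samples. Deviations of same-numbered mock libraries correlated from 0.05 to 0.47 (median 0.21, over 0.1 in 24 of 28 pairs).

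The genes and lists were chosen with earlier results of these data known. Named were the leading sequence of each family at positions 9, 20, 26, 34, 37 and 58, other sequences covered in all 32 libraries, further leading positions misread by 5% or more, and called positions, up to 3 per genotype. Alternatives were a block on the replicate number, 5 added to each count, 100 reads at least, 1 copy per sequence, the NaCNBH3 libraries, a T share of 0.1% and each replicate left out.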

Additional observations from a re-analysis of the deposited data

How the results depend on the processing

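Of the comparisons between families, 14 of 22 pairs passed the test, 15 in the NaCNBH3 libraries, 12 without replicate 1 and 13 without replicate 2. The directions of the 14 pairs were kept in all of these. The calls lost were pairs at position 34. Asp minus His at position 34 was gained in the NaCNBH3 libraries and without replicate 2, and changed sign without replicate 1.

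For mismatch against NAT10-WT in the mock libraries, the 2 positions called in Wildtype became 1 with at least 100 reads, which leaves TRY-GTA2-1 G24 untested, and 1 to 2 without single replicates. With the copy with the most reads 3 were called, TRN-GTT2 C64 being added. In K290A the count rose from 0 to 1 with the replicate block and to 1 with 5 added to each count, and ran from 0 to 1 without single replicates. The position was TRY-GTA2-1 G24, except without K290A replicate 2, where it was TRN-GTT2 C64. The block changed no other call among the 23 positions, while over the whole table it raised the K290A count from 23 to 49.

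For NaCNBH3 against mock, none of the 23 positions was called, 1 (TRN-GTT2 G9) with 5 added to each count, 2 without the thin K290A library, 0 to 7 without single replicates and 0 with no replicate block. The whole-table count of 104 became 137 with 5 added, 148 without the thin library, 37 without replicate 1, 229 without replicate 2 and 46 with no block. The cause was not tested.

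C positions raised by NaCNBH3 rose from 0 to 6 in Wildtype, 4 in FKBP, NAT10(-) and NAT10-WT, 2 in K290A, 1 in E389L and H537A and 3 in G641E with a T share over 0.1%, which admits more positions. These were 26.1% of the positions tested in Wildtype and 7.14% to 26.7% in the other genotypes, each below the whole-table share (28.7% to 42.6%). With 1 replicate alone they ran from 0 to 1 in Wildtype, FKBP, NAT10(-), H537A and G641E, 0 to 2 in NAT10-WT and K290A, and stood at 1 in E389L. In addition 1 position was called lower with replicate 2 alone in Wildtype and FKBP, and with replicate 1 alone in NAT10(-), E389L and H537A.

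Against NAT10-WT, the C positions called lower by the Fisher rule became 2 in K290A, 2 in H537A and 0 in G641E with the copy with the most reads, and 1 to 2 in K290A, H537A and G641E with 1 replicate alone. By limma, which could test C64 of TRN-GTT2 and TRN-GTT3-1 but not of TRN-GTT4-1, they were, with or without the replicate block, 1 in Wildtype and 0 in FKBP, NAT10(-), K290A, E389L, H537A and G641E. Of the main results under their alternatives, 140 stayed and 45 moved. Many main counts were 0, and a count of 0 that remained 0 is among those that stayed. Positions thinner than 30 reads are not listed in the files, so low T shares were detectable only at deep positions.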
